A study of Mus musculus with 8 samples.

Results

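S100 calcium-binding proteins are described here across colonic monocytes and macrophages, from 7 genes of the S100a family (S100a1, S100a4, S100a6, S100a8, S100a9, S100a10 and S100a11) among 14 rows of that family and 16889 gene rows in the table of unique molecular identifiers (UMIs, the counted transcript molecules). The members are given as a list of names, which leaves out 7 further S100a rows. All 7 lie on mouse chromosome 3, in the 2 neighbourhoods that hold the family.

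CD11b+ cells that carried CCR2 or CD64 were sorted from the colonic lamina propria of female CD98hcΔCX3CR1 mice of 6 to 12 weeks, in which the CD98hc gene (Slc3a2) is floxed in the germline and a Cre recombinase fused to an estrogen receptor, together with YFP, is driven from the Cx3cr1 locus. Control mice (n = 4) received corn oil and cKO mice (n = 4) received tamoxifen, on 5 days each, and cells were taken on day 7. All mice of both groups carried the same alleles, so a cKO mouse differs from its control by the drug as well as by the excision, and the effects of these cannot be told apart. The cells of each mouse were captured in a separate 10x Genomics well on the same day.

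S100 proteins are small proteins with EF-hand loops, which bind calcium in most of them, and they dock onto target proteins, mostly as dimers. S100a8 and S100a9 together form calprotectin, a zinc and manganese binding complex that neutrophils and early monocytes hold in large amounts and that can signal through TLR4 when released. S100a4 binds nonmuscle myosin, S100a6 binds the calcyclin-binding protein, S100a10 forms a complex with annexin A2 at the membrane, and S100a11 binds annexin A1. S100a1 is best known from heart and skeletal muscle.

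After the filters, 3213 cells were analysed, 1863 from control and 1350 from cKO mice, with 83 to 724 cells and 497531 to 3762314 UMIs per mouse. Control mouse 3 and cKO mouse 5 gave the fewest cells (85 and 83). Scrublet called 58 doublets in cKO and 15 in control mice, 24 of them among the 83 cells of cKO mouse 5, and without these cells the same number of members was called in every comparison refitted. Among the kept cells 8 cell barcodes occurred in more than 1 mouse. Of the clusters formed without any S100 gene, some were led by dendritic, lymphoid or stromal markers and were set aside (789 cells). The other 2424 cells are called monocyte to macrophage cells below. They include a cluster of 490 cells led by Saa3 and a shallow cluster of 292 cells led by Cebpb. Neither had a listed marker of any cell type among its 10 leading genes, and they were kept because they were not set aside. The floxed gene Slc3a2 was at 358, 264, 233 and 493 CPM (a gene's UMIs scaled to a common total per mouse) in control mice 1 to 4 and at 291, 357, 323 and 309 CPM in cKO mice 5 to 8. These values overlapped, with a log2 fold change of 0.02 ± 0.21 (SE), and since the tags lie at the 3′ ends of transcripts they need not cover the excised part and do not check the deletion.

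S100a4, S100a6 and S100a11 were the members that fell at every step from monocyte to macrophage in 8 of 8 mice, and the stretches before their first exons are shown for that reason, from RefSeq on GRCm38.p6, each on the plus strand. The capitals mark matches on either strand to 4 short motifs searched in these stretches, which were the TATA box (TATAAA), the AP-1 site (TGANTCA), the PU.1 core (GAGGAA) and the C/EBP site (TTNNGCAA), and no matches overlapped.
S100a4, chr3:90603520-90603770: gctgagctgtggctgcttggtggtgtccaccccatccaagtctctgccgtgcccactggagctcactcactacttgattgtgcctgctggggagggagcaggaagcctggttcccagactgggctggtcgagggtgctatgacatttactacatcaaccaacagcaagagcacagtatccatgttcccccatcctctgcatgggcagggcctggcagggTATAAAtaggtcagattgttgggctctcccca
S100a6, chr3:90612644-90612881: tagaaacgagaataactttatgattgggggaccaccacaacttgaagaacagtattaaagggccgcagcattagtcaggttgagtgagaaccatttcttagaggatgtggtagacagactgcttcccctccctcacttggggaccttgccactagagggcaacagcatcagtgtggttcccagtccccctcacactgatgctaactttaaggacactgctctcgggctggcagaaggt
S100a11, chr3:93520246-93520487: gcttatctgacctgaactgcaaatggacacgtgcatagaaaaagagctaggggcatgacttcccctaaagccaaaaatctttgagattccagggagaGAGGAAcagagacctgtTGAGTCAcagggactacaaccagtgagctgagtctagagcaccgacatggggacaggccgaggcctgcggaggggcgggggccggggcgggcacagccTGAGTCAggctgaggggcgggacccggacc
The stretch of S100a4 held a TATA box, that of S100a11 held 2 AP-1 sites and a PU.1 core, and that of S100a6 held none of the 4 motifs. Among the first 250 bases of all 32851 promoter windows of the RefSeq table, 12.4% held the TATA box, 6.75% the AP-1 site, 23.3% the PU.1 core and 9.56% the C/EBP site. Windows were found for 6 of the 7 members, all but S100a10, and among these the TATA box was also in that of S100a8, the PU.1 core in that of S100a8 and the C/EBP site in that of S100a9 alone. The gene bodies are S100a4 at 90603771 to 90606045, S100a6 at 90612882 to 90624181 and S100a11 at 93520488 to 93526287 of chromosome 3, and 6836 bases separate S100a4 from S100a6. S100a1 (90511034 to 90514392, minus strand) starts 42 bases from S100a13, which reads the other way. A gene model on the strand of S100a4, Gm42674, has 4 exons of which 2 overlap exons of S100a4, and it has no row in the table, so how shared reads were counted is uncertain for S100a4.

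The levels of the S100 genes were first followed along the monocyte to macrophage axis, which the question of the study concerns. Each of the 2424 cells received a score, the mean log level of 10 macrophage markers minus that of 7 monocyte markers, none of them an S100 gene, and was placed in 1 of 4 quartiles of 606 cells. The 7 members together took 0.584% ± 0.063 (SD, n = 8 mice) of all UMIs at the monocyte end and 0.065% ± 0.013 at the macrophage end. S100a4, S100a6, S100a10 and S100a11 fell toward the macrophage end and S100a1 rose, and S100a8, with few UMIs, was also called lower. The test was passed by 5 members that were lower and 1 that was higher, and S100a9 was not tested. Of the 5, S100a8 passed the filter on low counts through the monocyte end, which favours its direction. Of the 8950 genes tested, 12.5% were lower and 12.4% were higher (edgeR quasi-likelihood test with the mouse as a block, Benjamini-Hochberg adjusted p under 0.05). The members were chosen with earlier results of these data known, so their counts are no test against these shares.

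S100a6 stood at 2302, 2914 and 3556 CPM (lowest, median and highest of 8 mice) in the monocyte quartile, at 874, 1288 and 2310 CPM in the second, at 410, 756 and 1196 CPM in the third and at 139, 202 and 306 CPM in the macrophage quartile. The end quartiles did not overlap, and within a mouse the monocyte end was 11.6 to 21.7 times higher. The log2 difference between the ends was -3.79 ± 0.14 (SE, edgeR adjusted p = 2.42e-53).

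S100a4 was at 699, 974 and 1136 CPM at the monocyte end and at 8.42, 20.1 and 72.6 CPM at the macrophage end. The ends did not overlap in any mouse, and 86 UMIs were left among the 606 cells of the macrophage quartile. With a log2 difference of -4.92 ± 0.19 (SE, edgeR adjusted p = 2.09e-51), this was the steepest of the falls, although the ratio within a mouse, between 11.5 and 104 times, rested on few UMIs at the lower end.

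S100a10 went from 696, 814 and 1179 CPM at the monocyte end to 48.4, 138 and 254 CPM at the macrophage end. It fell at every step in 7 of 8 mice, the exception being a control mouse with 436 CPM in the second and 567 CPM in the third quartile. The log2 difference was -2.60 ± 0.15 (SE, edgeR adjusted p = 1.87e-33).

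S100a11 had 936, 1129 and 1328 CPM at the monocyte end, 672, 879 and 992 CPM in the second quartile, 523, 584 and 636 CPM in the third and 173, 202 and 244 CPM at the macrophage end. Its last step was the largest, and the 8 mice lay close together in each quartile. The log2 difference between the ends was -2.45 ± 0.14 (SE, edgeR adjusted p = 2.34e-34).

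S100a1 went the other way, from 0, 45.4 and 75.7 CPM at the monocyte end to 53.3, 75.4 and 116 CPM at the macrophage end. It was higher at the macrophage end in 8 of 8 mice, but the ranges of the mice overlapped. The log2 difference was 0.80 ± 0.22 (SE, edgeR adjusted p = 0.00306), and the call was lost in the 4 control mice alone (0.65, adjusted p = 0.0906) and after each cell was thinned to 1000 UMIs (0.94, adjusted p = 0.0960).

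S100a8 had 53 UMIs in the monocyte quartile, 17 in the second, 3 in the third and 1 in the macrophage quartile, over all mice. Its log2 difference of -3.74 ± 0.79 (SE, edgeR adjusted p = 6.28e-05) rests on the 54 UMIs of the end quartiles, and the gene passed the filter on low counts through the monocyte end, which favours a difference in this direction. S100a9 did not pass the filter on low counts.

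**Figure D1:**
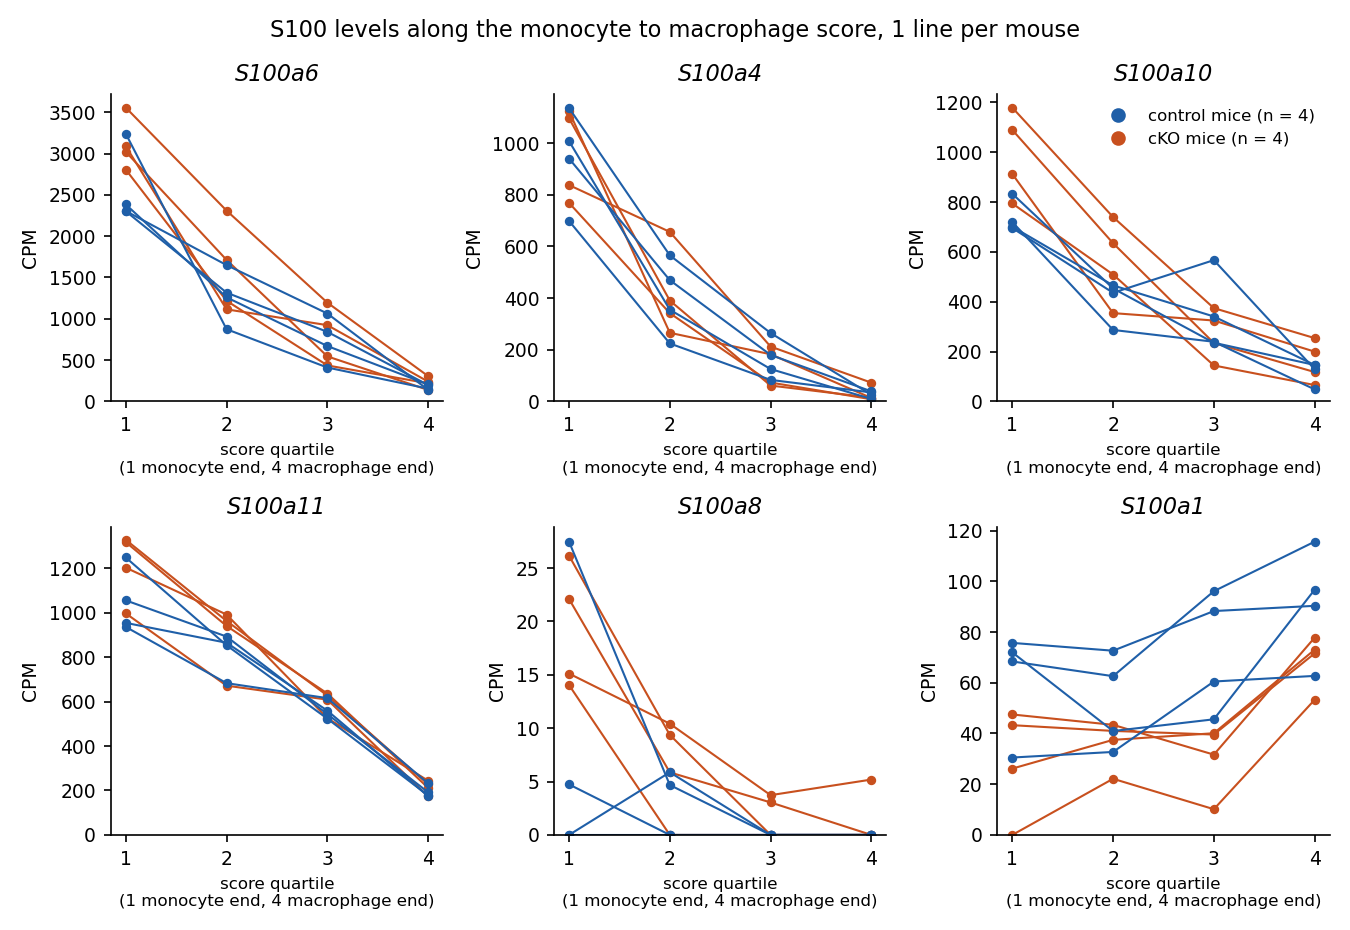
Level (CPM, linear axes from 0) of 6 members against the quartile of the monocyte to macrophage score, with 1 line per mouse (blue control, n = 4, and orange cKO, n = 4). S100a6, S100a4, S100a10 and S100a11 end between 8.42 and 306 CPM after starting at 696 CPM or more, S100a8 reaches at most 27.5 CPM, and S100a1 climbs.

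With each cell thinned to 1000 UMIs, the share of cells with an S100a6 UMI was 84.4% ± 5.57 (SD over 8 mice) at the monocyte end and 12.02% ± 3.62 at the macrophage end, against 96.9% and 29.7% without thinning. For S100a11 the thinned shares were 61.7% ± 12.2 and 17.1% ± 8.06. Control mouse 3 and cKO mouse 5 gave 5 and 12 cells to the monocyte end, and with mice of at least 20 cells at both ends alone (a setting added once the data had been seen) the log2 differences were -4.84 for S100a4 and -3.80 for S100a6.

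Among the other S100 rows, S100a13, a ubiquitous member without a signal peptide that takes part in the release of growth factors, had 3246 UMIs. It stood at 174, 220 and 302 CPM at the monocyte end and at 96.7, 142 and 188 CPM at the macrophage end, and it was called lower (log2 difference -0.59 ± 0.16, SE, edgeR adjusted p = 0.00199). S100a16 had 199 UMIs and was not tested here along the axis, and each of the 8 remaining rows had 11 UMIs or fewer.

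Genes whose products bind S100 proteins were followed in the same fit. Of 8 partners, 3 fell, 1 rose and 4 did not pass the test, with a median log2 difference of -0.27 beside 0.05 over all genes tested, of which 12.5% fell and 12.4% rose as above. Anxa2, the annexin bound by S100a10, fell by 2.88 on the log2 scale (SE 0.15, edgeR adjusted p = 9.92e-38), from a mean of 1136 CPM to 145 CPM. Ahnak, a scaffold of the S100a10 and annexin A2 complex, fell by 1.97 (SE 0.19) and Anxa1, the annexin bound by S100a11, fell by 1.70 (SE 0.15). Anxa5 rose by 0.34 (SE 0.13). Myh9, the nonmuscle myosin heavy chain, and Cacybp, the calcyclin-binding protein, named here as the partners of S100a4 and S100a6, had differences of -0.28 ± 0.22 and 0.08 ± 0.21 (SE) and passed no threshold. Of 7 receptor genes, 6 were tested, of which 2 fell, 1 rose and 3 were not called (median -0.08). Emb, the immunoglobulin-family protein embigin reported to bind S100a8 and S100a9, fell by 1.85 (SE 0.15), Cd14, the co-receptor of TLR4, fell by 0.87 (SE 0.15), and Cd36, a scavenger receptor, rose by 2.999 (SE 0.49). Cd36 was low, with a mean of 2.08 CPM at the monocyte end and 23.7 CPM at the macrophage end. Its lowest mouse was at 0 CPM at both ends. Of 7 other EF-hand genes, 3 rose and none fell (median 0.28), led by Aif1, the macrophage actin-bundling protein IBA1, with 2.02 ± 0.14 (SE, edgeR adjusted p = 3.88e-28) from a mean of 440 CPM to 1577 CPM. The other EF-hand calls were Calm2, a calmodulin gene, with 0.54 ± 0.13 and Lcp1, the actin bundler L-plastin, with 0.38 ± 0.13.

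Levels were then compared between clusters, as a description without a test, since the same cells formed the clusters. Per mouse, monocyte-like cells (a cluster with the markers Chil3, F13a1 and Mgst1 among its 10 leading genes, and a cluster led by Dmkn that also had Chil3 among them) and macrophage-like cells (clusters with Pf4 and Fcrls, and in the larger also C1qa, C1qb, C1qc and Ms4a7) could be set side by side in 7 mice with at least 20 cells of each. S100a4 was at 959 ± 119 CPM (SD, n = 7 mice) in monocyte-like and 89.1 ± 60.1 CPM in macrophage-like cells. S100a6 was at 2841 ± 423 and 524 ± 173 CPM, S100a10 at 911 ± 202 and 228 ± 72.4 CPM, and S100a11 at 1122 ± 141 and 397 ± 80.6 CPM. These 4 genes were lower in macrophage-like cells in 7 of 7 mice with no overlap between the classes. S100a1 was at 42.3 ± 14.2 and 68.7 ± 20.8 CPM, higher in macrophage-like cells of 7 of 7 mice with overlapping ranges.

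Across all 9 clusters each member had an order of its own. S100a4 was highest in the monocyte-like cluster with Chil3 (986 ± 166 CPM, SD, n = 6 mice) and that led by Dmkn (914 ± 108 CPM, n = 4), which overlapped with each other and with no further cluster. Next came lymphoid-like cells (459 ± 172 CPM, n = 6) and dendritic-like cells (409 ± 109 CPM, n = 7), which overlapped. The lowest levels, which overlapped, were those of the macrophage-like clusters with C1q genes (103 ± 51.3 CPM, n = 6) and with Ccl8 (97.5 ± 68.7 CPM, n = 6) and of stromal-like cells, where the mouse with at least 20 cells had 70.3 CPM.

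S100a11 had its highest level in dendritic-like cells, at 1931 ± 146 CPM (SD, n = 7 mice). The lowest of these 7 mice had 1659 CPM, above the highest mouse of any other cluster, which was at 1429 CPM in the monocyte-like cluster led by Dmkn. Dendritic-like cells were also the deepest, with a median of 9184 UMIs against 4974 in the cluster led by Dmkn, and at 1000 UMIs per cell the share with an S100a11 UMI was 84.2% against 69.6%. In macrophage-like cells with C1q genes that share was 29.9%.

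S100a6 was at 4231 CPM in stromal-like cells of the mouse that had 31 of them, followed by the monocyte-like clusters led by Dmkn (3248 ± 529 CPM, SD, n = 4 mice) and by Chil3 (2722 ± 406 CPM, n = 6). The ranges of the latter clusters overlapped with each other and with that of dendritic-like cells (1628 ± 700 CPM, n = 7), which varied from 892 to 2900 CPM. S100a10 was at 1098 ± 253 CPM (n = 4) in the cluster led by Dmkn, 942 ± 324 CPM (n = 6) in lymphoid-like cells and 821 ± 125 CPM (n = 6) in the cluster with Chil3, 3 neighbours whose ranges overlapped. S100a1 was at 218 CPM in stromal-like cells of that mouse, and the means of the other 8 clusters ran from 41.4 to 102 CPM with overlapping neighbours.

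**Figure D2:**
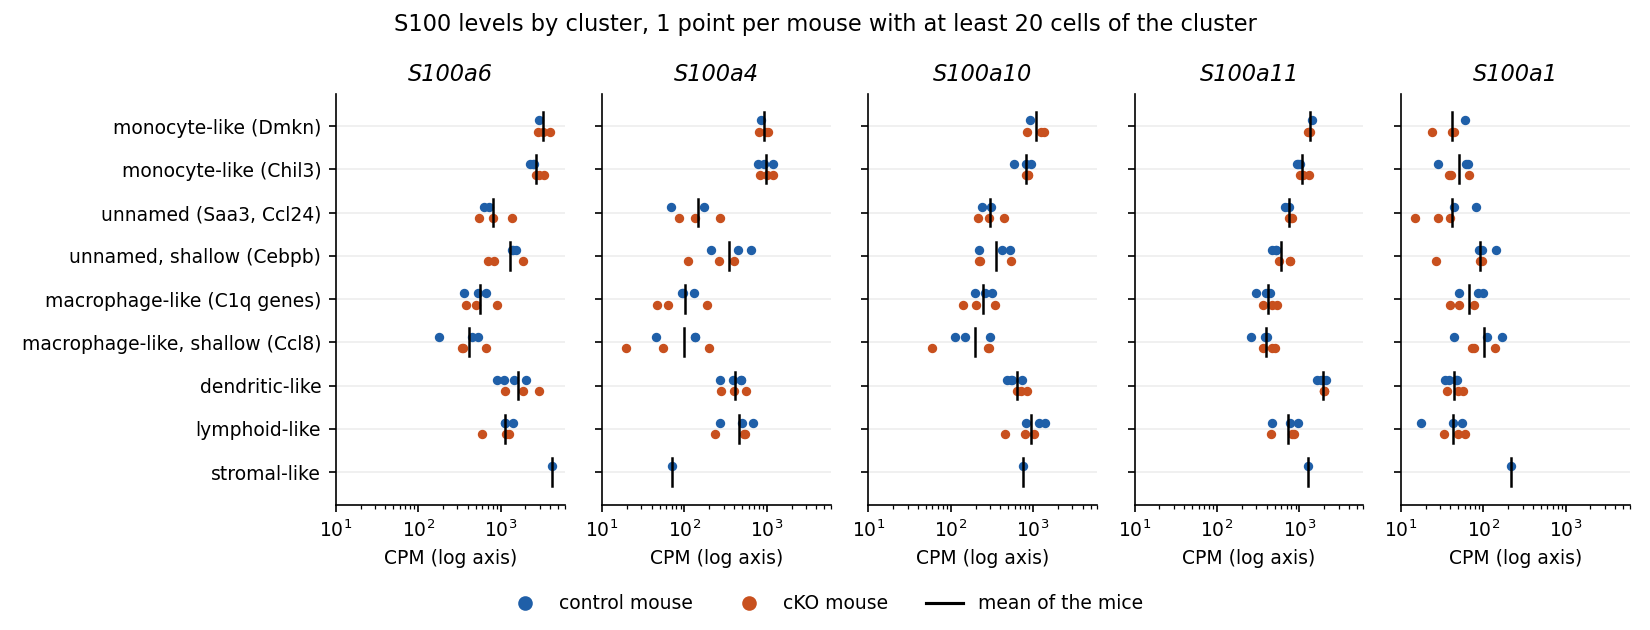
Level (CPM, log axes) of 5 members in 9 clusters, with 1 point per mouse that had at least 20 cells of the cluster (blue control, orange cKO) and a black line at the mean of the mice. The monocyte-like clusters lie to the right of the macrophage-like clusters for S100a6, S100a4, S100a10 and S100a11, dendritic-like cells lie farthest right for S100a11, and the order is turned for S100a1.

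The genes most like each member were sought among 11363 genes, by Pearson's correlation of log2(CPM + 10) over 47 sums of a mouse and a cluster, which share mice and libraries. S100a4 had S100a10 (r = 0.85), S100a6 (r = 0.83) and Tmsb10, a thymosin that binds actin (r = 0.80), as its closest genes. For S100a6 these were Tmsb10 (r = 0.83), Glipr2 (r = 0.83) and S100a4, for S100a10 Glipr2 (r = 0.89), S100a4 and S100a6 (r = 0.82), and for S100a11 Tmsb10 (r = 0.87), the leukocyte actin-binding Lsp1 (r = 0.83) and Pfkp, a phosphofructokinase (r = 0.83). S100a8, near 0 in most sums, had Cebpe (r = 0.71), a transcription factor of granulocyte maturation, Slc2a6 and Dmkn (both r = 0.69). S100a1 had negative coefficients with every other member tested, from -0.10 to -0.41, and its closest genes were Timp2 (r = 0.75), Tmem159 (r = 0.67) and Igfbp4 (r = 0.66).

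S100a8 and S100a9 were scarce in the cells kept. S100a8 had 76 UMIs in 39 of 3213 cells, with 1 UMI in 27 of these and at most 8 UMIs in a cell. The monocyte-like cluster led by Dmkn held 49 of the 76 UMIs, in 18 of its 388 cells (4.64%, Wilson 95% interval 2.95 to 7.21%), and that with Chil3 held 12 UMIs in 9 of 299 cells (3.01%, 1.59 to 5.62%). Of the cells of the cluster led by Dmkn, 330 came from cKO mice and 49% from cKO mouse 7 alone. Within that cluster S100a8 was at 66.5 CPM (10 UMIs) in control mouse 4, the control mouse with at least 20 cells of it, and at 31.8, 23.7 and 15.4 CPM in cKO mice 6, 7 and 8, an order opposite to that over all cells, with no test for 1 control mouse. In macrophage-like cells with C1q genes the count was 0 of 689 cells, which allows a share of up to 0.435%, at a median depth of 5425 UMIs against 4974 in the cluster led by Dmkn. The shallow macrophage-like cluster with Ccl8 held 5 UMIs in 2 of 266 cells, all from cKO mouse 8, at a pooled level of 10.7 CPM against 8.19 CPM in the cluster with Chil3. S100a9 had 5 UMIs in 5 cells, all of cKO mice 7 and 8, and 0 in control mice, which allows up to 0.283 CPM there. Limits for a count of 0 are set at 3 cells or 3 UMIs of the total, and intervals and limits cover counting error only.

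The study asked what the loss of CD98hc does to these cells, so the members were next compared between cKO and control mice, first over all cells of a mouse. S100a8 was the member called, at a higher level in cKO mice, where 2.99% of the 11387 genes tested were higher. It passed the filter on low counts through the cKO mice, with a UMI in 31 cKO and 8 control cells and above 1 CPM in 4 cKO mice and 1 control mouse, which favours a higher level in cKO mice, so the call is given as a description. It had 3, 1, 0 and 11 UMIs (0.797, 0.306, 0 and 3.70 CPM) in control mice 1 to 4 and 1, 14, 28 and 18 UMIs (2.01, 8.46, 11.3 and 7.87 CPM) in cKO mice 5 to 8. The levels of 3 cKO mice lay above every control mouse and cKO mouse 5, with 83 cells, did not, so the groups overlapped. The log2 fold change was 2.63 ± 0.61 (SE, edgeR adjusted p = 0.0341), and pooled levels were 8.81 CPM (exact 95% Poisson interval 6.74 to 11.3) in cKO and 1.42 CPM (0.793 to 2.34) in control mice. The call was lost without cKO mouse 6, 7 or 8, without control mouse 1 or 2 (adjusted p up to 0.126) and among monocyte to macrophage cells alone (1.99 ± 0.57, adjusted p = 0.0770).

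Neutrophil markers were set beside S100a8. Of 9 such genes 8 had a row and 4 were tested, of which Ly6g was called (3.59 ± 0.87, SE, edgeR adjusted p = 0.0392), with 6 UMIs in 6 control cells and 42 UMIs in 37 cKO cells, so that it too passed the filter through the cKO mice. Ly6g was at 26.1, 3.63, 3.62 and 6.12 CPM in cKO mice 5 to 8, highest in the cKO mouse with the lowest S100a8 level, and at 0 to 1.70 CPM in control mice. Ltf, the lactoferrin gene, had 8 UMIs in control and 1 in cKO mice. The summed level of the list was between 32.7 and 74.7 CPM in control and between 65.9 and 108 CPM in cKO mice, most of it from Csf3r and Mmp8, which were also lower at the macrophage end than at the monocyte end (-1.53 ± 0.24 and -4.52 ± 0.42). Of the markers that define mature neutrophils, Retnlg had 0 UMIs in control and 7 in cKO cells, and Cxcr2 had 5 and 3. The part of neutrophils in the S100a8 result was not tested. Of the other lists, no partner (of 8) and no other EF-hand gene (of 7) was called over all cells, and 2 of 6 receptor genes rose, Cd14 (1.21 ± 0.31, SE, edgeR adjusted p = 0.0456) and Ly96, the TLR4 partner MD-2 (0.91 ± 0.20, adjusted p = 0.0258). Of all 11387 genes tested over all cells, 510 were called and 2.99% were higher in cKO mice. Along the axis, Cd14 was also lower at the macrophage end (-0.87 ± 0.15), and Ly96 was not called.

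The other members did not pass the threshold over all cells. S100a6 was at 1227, 975, 1183 and 1492 CPM in control and at 1325, 1328, 2087 and 2060 CPM in cKO mice, so that cKO mice 7 and 8 stood above all others (0.58 ± 0.20, SE, edgeR adjusted p = 0.121). S100a4 was at 355, 285, 360 and 323 CPM in control and at 312, 441, 486 and 481 CPM in cKO mice (0.48 ± 0.17, adjusted p = 0.132 by edgeR), and it passed without cKO mouse 5 (0.62, adjusted p = 0.0374). S100a10 was at 521, 471, 421 and 484 CPM against 472, 476, 747 and 738 CPM (0.46 ± 0.18, adjusted p = 0.177). S100a11 was at 1062, 1133, 1090 and 1215 CPM against 826, 1028, 1083 and 1009 CPM (-0.09 ± 0.13, adjusted p = 0.758). S100a1 was at 79.7, 63.9, 69.6 and 49.1 CPM in control and at 24.1, 47.2, 45.9 and 47.2 CPM in cKO mice. For S100a1 the highest cKO mouse stayed under the lowest control mouse, as for 8.34% of the genes tested, and its fold change of -0.51 ± 0.22 had an adjusted p of 0.210 by edgeR.

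Dendritic-like cells are high in S100a11 and numbered 429 in control and 95 in cKO mice, and sums over cells cannot tell more cells of a type from more RNA per cell. Among the monocyte to macrophage cells alone, S100a4, S100a6 and S100a10 rose in cKO mice, where 2.09% of the 10069 genes tested were higher. S100a6 was at 898, 765, 705 and 1082 CPM in control and at 1262, 1409, 2020 and 2080 CPM in cKO mice (1.03 ± 0.20, SE, edgeR adjusted p = 0.0108). S100a4 was at 293, 283, 226 and 233 CPM against 355, 488, 479 and 505 CPM (0.87 ± 0.17, adjusted p = 0.0120). S100a10 was at 343, 309, 229 and 395 CPM against 421, 447, 745 and 691 CPM (0.91 ± 0.22, adjusted p = 0.0398). For these 3 genes all cKO mice lay above all control mice, which 3.7% of the genes tested did. S100a11 had a positive fold change that was not called (0.67 ± 0.19, adjusted p = 0.0740), with 535, 451, 527 and 692 CPM against 618, 896, 1014 and 824 CPM, groups that overlapped. S100a1 had 92.2, 85.8, 65.0 and 47.8 CPM against 21.0, 38.3, 45.3 and 44.7 CPM without overlap, in a direction that 5.69% of genes shared (-0.83 ± 0.25, adjusted p = 0.0910).

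**Figure D3:**
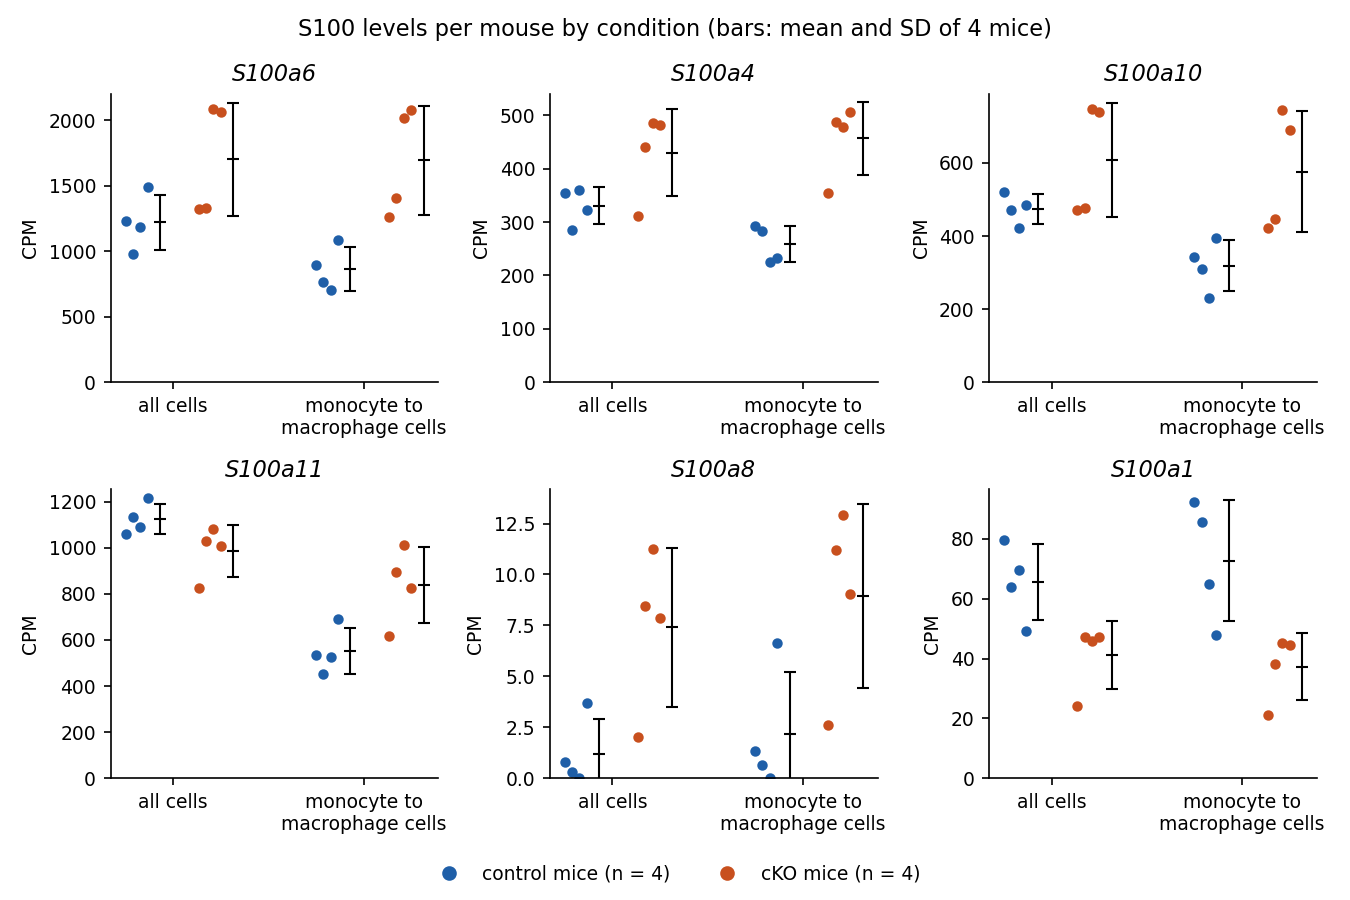
Level (CPM, linear axes from 0) of 6 members in control (blue) and cKO (orange) mice, summed over all cells and over the monocyte to macrophage cells, with 1 point per mouse and the mean and SD of 4 mice in black (bars cut at 0 for S100a8). Among monocyte to macrophage cells the cKO points of S100a6, S100a4 and S100a10 lie above the control points, and those of S100a1 lie below.

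The mice also differed in where their cells lay on the axis. Of the 606 cells of the monocyte quartile 391 came from cKO and 215 from control mice, and of the 606 cells of the macrophage quartile 168 came from cKO and 438 from control mice. Cells were therefore compared between the conditions within each quartile. In the macrophage quartile the depth differed, with medians of 1494.5 to 3480 UMIs in cKO mice (18 to 60 cells each). Control mice had medians of 3703 to 4889 UMIs there (16 to 192 cells each). No member passed the threshold in any quartile by edgeR or by DESeq2 (0 of 24 values, 1 of them with an unadjusted p under 0.05), while 0.874%, 1.46%, 0.765% and 0.367% of all genes were called in quartiles 1 to 4. At the monocyte end the fold changes were 0.42 ± 0.26 for S100a6, 0.52 ± 0.29 for S100a10, 0.30 ± 0.20 for S100a11 and 0.93 ± 0.60 for S100a8 (log2, SE). S100a4 was at 941, 1136, 1008 and 699 CPM in control and at 1123, 1096, 769 and 838 CPM in cKO mice in this quartile, so the cKO range lay within the control range.

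S100a1 had negative log2 fold changes in each quartile, none of them called, of -0.53 ± 0.37, -0.39 ± 0.36, -1.15 ± 0.34 and -0.45 ± 0.33 (SE) from the monocyte to the macrophage quartile. In the third quartile it was at 96.1, 88.3, 45.6 and 60.5 CPM in control and at 10.1, 40.1, 39.6 and 31.7 CPM in cKO mice. These did not overlap, as for 2.01% of genes in that direction, and the unadjusted p of 0.00164 became 0.145 after adjustment (edgeR).

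**Figure D4:**
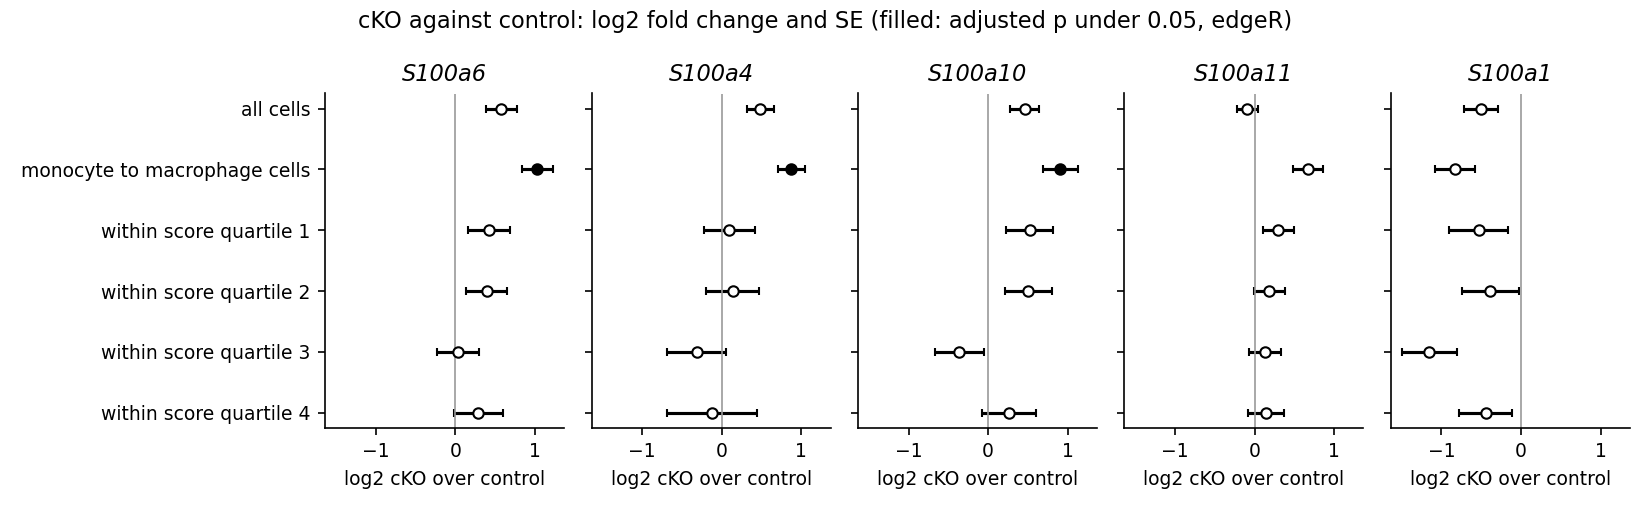
Log2 fold change of cKO over control with its SE for 5 members, over all cells, over the monocyte to macrophage cells and within the quartiles of the score, where filled points have an adjusted p under 0.05 (edgeR). The filled points, at 1.03, 0.87 and 0.91, belong to S100a6, S100a4 and S100a10 over the monocyte to macrophage cells.

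The steepness of the axis itself was compared between conditions by an interaction term. It uses the end quartiles, within which the markers of the axis were not equal between the conditions, as given above. No member passed the threshold by edgeR or DESeq2 (0 of 6, none with an unadjusted p under 0.05), where 0.905% of genes were called. The differences between cKO and control in the log2 distance from end to end ranged from -0.34 ± 0.29 (SE) for S100a10 to 0.69 ± 0.71 for S100a8. The value of S100a4 hung on cKO mouse 8, with -0.11 ± 0.43 in all mice and -1.48 ± 0.62 without it (adjusted p = 0.612 by edgeR), and so did its fold change in the macrophage quartile, -0.12 ± 0.56 in all mice and -1.52 ± 0.67 without that mouse. Among the lists, the receptor gene Cd14 was called, with -1.39 ± 0.24 (edgeR adjusted p = 2.85e-06).

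Within clusters, 4 had enough mice of each condition. No member passed by edgeR or DESeq2 (0 of 20 values, 1 with an unadjusted p under 0.05), where 0.25% of genes were called in the shallow cluster led by Cebpb, 1.8% in the macrophage-like cluster with C1q genes, 0.119% in that with Ccl8 and 0.608% in the monocyte-like cluster with Chil3. S100a4 had the lowest fold change, -0.89 ± 0.38 (SE, edgeR adjusted p = 0.587) in the shallow cluster, with 635, 444 and 209 CPM in control mice 1, 2 and 4 and 265, 110 and 401 CPM in cKO mice 6, 7 and 8. It passed there without control mouse 4 (-1.17, adjusted p = 0.0395). S100a1 was at 98.1, 86.7 and 50.2 CPM in control mice 1, 2 and 4 and at 51.4, 76.9 and 39.7 CPM in cKO mice 6, 7 and 8 in macrophage-like cells with C1q genes (-0.62 ± 0.33, adjusted p = 0.545).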

How the data were processed

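Colonic CD11b+ cells of 4 control and 4 cKO mice were profiled with a 10x Genomics 3′ kit. The deposited values are whole-number UMI counts per gene and cell, which the authors made with Cell Ranger and STAR 2.5.3a on mm10 with EYFP added, and merged without down-sampling. Cells needed a log10 UMI count of at least 2.8, a log10 gene count of at least 2.6, at most 5% mitochondrial UMIs and no hemoglobin UMI. Scrublet calls (scanpy 1.11.5) were kept. Ward clustering into 9 clusters used scran 1.30.0 without S100 genes, markers, Slc3a2 and EYFP. Sums per mouse were tested with edgeR 4.0.16 (TMM, quasi-likelihood) at a false discovery rate of 0.05, keeping genes above 1 CPM in 3 sums and with a UMI in 20 cells, and sums per cluster needed 20 cells. Alternatives included DESeq2 1.42.0, other filters, clusterings and scores. A check of edgeR on simulated data (200 genes changed, 11872 genes) recovered 23% of 2-fold and 96% of 4-fold changes between conditions in all cells, and 56% and 100% between the score ends (11339 genes). Positions are from GENCODE on GRCm38. The members, lists and motifs were chosen with earlier results of these data known. The text names the members, the largest S100 rows otherwise, up to 3 called genes per list with the largest fold changes (Anxa5, Myh9 and Cacybp are outside that rule) and the 3 genes most like each member. A further marker gene is not reported here.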

Additional observations from a re-analysis of the deposited data

Results flagged for a closer look

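In 7 of 61 groups of 4 mice, a mouse lay far from the other 3 in the level of a member, by Dixon's criterion. Its rate of about 1 in 20 holds for independent groups of normal values. These groups share cells, and 1 mouse above 0 beside 3 at 0 always meets the criterion, so the 7 cannot be set against that rate. S100a1 over all cells was at 24.1 CPM in cKO mouse 5 (12 UMIs) against 45.9 to 47.2 CPM in the other cKO mice. At the monocyte end S100a1 was at 30.5 CPM in control mouse 4 against 68.4 to 75.7 CPM, and S100a6 was at 3240 CPM in control mouse 3, on 5 cells, against 2302 to 2384 CPM. In the second quartile S100a10 was at 287 CPM in control mouse 3 against 436 to 466 CPM, and S100a11 was at 672 CPM in cKO mouse 5 against 940 to 992 CPM. At the macrophage end S100a4 was at 72.6 CPM in cKO mouse 8 (14 UMIs) against 8.42 to 14.6 CPM, and S100a8 was at 5.19 CPM there from a UMI of 1 cell against 0 in the other cKO mice.

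Barcodes that the cell filters removed held most of the S100a8 and S100a9 molecules of the table. Of the 274 UMIs of both genes over 5947 barcodes, 150 (54.7%) were in 1 barcode of cKO mouse 7, with 105 of S100a8 and 45 of S100a9. That barcode had 1265 UMIs of 366 genes, below the 399 genes needed, and S100a8 and S100a9 made up 11.9% of its UMIs. It held 25 UMIs of Retnlg, a resistin-like gene of neutrophils, 2 of Csf3r, 2 of Mmp8 and 1 of Cxcr2, and none of Ly6g. A second removed barcode, of cKO mouse 8, had 21 and 14 UMIs of S100a8 and S100a9 among 220 UMIs. The highest count of both genes in a removed barcode of a control mouse was 1.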

How the results depend on the processing

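Of 436 values recomputed, 410 stayed the same. Among these values were 303 fold changes of single members, of which 287 kept their direction and their side of the threshold. The other 133 were numbers of members called and levels, of which 123 stayed the same. A number stayed the same if equal or close, and was often 0 in both, and a level if it moved by less than its SD. Over all cells, the number of members called went from 1 to 3 among monocyte to macrophage cells alone, where S100a11 turned to 0.67, and leaving out a mouse gave 0 to 2 members and an S100a11 fold change of -0.16 to 0.00152. In the shallow cluster led by Cebpb leaving out a mouse gave 0 to 1. In the interaction, S100a8 ranged from -0.62 without control mouse 4 to 1.30 when a mouse was left out, in the 5 fits that tested it, and S100a4 from -1.48 without cKO mouse 8 to 0.27. In the macrophage quartile S100a4 ranged from -1.52 without that mouse to 0.31. Clustering on all genes lets the S100 genes and the markers shape the clusters. It moved the log2 difference of macrophage-like from monocyte-like cells from -2.46 to -3.10 for S100a6 and from -1.49 to -2.01 for S100a11. Fewer cells or mice enter some of these fits, and the causes of the changes were not tested. Along the axis the 5 falling members stayed called in each alternative that tested them. S100a8, which the filter favours in this direction, was not tested in mice of either group alone or after thinning. Nor was it tested in 3 of the 8 fits that leave out a mouse. S100a1 lost its call in the 2 named above, and without the mouse as a block the differences were -4.89 for S100a4 and 0.91 for S100a1. Counts of genes called over all alternatives ran from 153 to 787 (510) over all cells, from 769 to 2336 (2229) along the axis, from 23 to 96 (81) for the interaction, from 3 to 102 (23), 111 to 262 (166), 3 to 50 (11) and 40 to 91 (56) in the 4 clusters, and from 55 to 152 (88), 74 to 180 (147), 46 to 92 (77) and 22 to 61 (37) in the quartiles, with those reported in parentheses. Without the doublet calls 350 genes were called over all cells. The study describes the mice as female littermates, but the labels name no litters, so no paired analysis was made. Between cKO and control mice, no member was called within tertiles of the score or within the clusters of the other clusterings. In the simulated data, where the spread between mice was set and not estimated, 2-fold changes between conditions over all cells were often missed. Quartiles and clusters were not simulated.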
